A study of Mus musculus with 9 samples.

Results

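The complement genes followed here were C1qa, C1qb, C1qc, C2, C3, C7, Cfp, Serping1 and C3ar1, measured in the tibialis anterior muscle of mice treated with dexamethasone (DEX), with or without turmeric extract (TE). Their members on the array were chosen as the probe sets, sets of short DNA probes for a transcript, whose annotation gives exactly 1 gene symbol, that symbol being 1 of these 9 genes. Of the 9 genes, 7 had such a probe set, and these 7 genes had 14 probe sets among 45037. C3 and C7 had none in the annotation used and were not analysed here. Of the 14 probe sets, 12 entered the test across 29269 probe sets, and 2 did not, because the mean signal of every group was under 50 on the log scale.

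Complement is a cascade of plasma proteins that marks microbes and damaged cells for removal. In the classical pathway C1q, built from the chains of C1qa, C1qb and C1qc, binds a target and its partner proteases cut C4 and C2, whose fragments form the enzyme that cuts C3. Properdin, the product of Cfp, stabilizes the corresponding enzyme of the alternative pathway, C7 is part of the pore that ends the cascade, the C1 inhibitor encoded by Serping1 blocks the C1 proteases, and C3ar1 is the receptor for the C3a fragment of C3. Most plasma complement is made in the liver, whereas C1q is made mainly by macrophages and related myeloid cells, which in muscle lie between the fibers and clear debris.

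All animals were male C57BL/6J mice of 15 weeks on an AIN93-based diet, housed singly, and the 3 groups held 3 mice each with 1 array per mouse. The control group was injected with saline, the DEX group with 5 mg/kg body weight of DEX, a synthetic glucocorticoid, every day over 7 d. Mice of the DEX + TE group received that dose of DEX too and ate a diet holding 2% TE, which by the methods was fed from 5 d ahead of the first injection, whereas the labels word TE as given after DEX. The mice used for the arrays were those with body and muscle weights near the average, and no array of TE without DEX was analysed here, so TE was compared only on top of DEX. The labels call the mice of a group biological replicates. The 11 skeletal muscle markers were bright on every array, with a summed signal of 614100 to 865100 in control, 483600 to 610500 in DEX and 594000 to 645800 in DEX + TE mice. In DEX against control 11 of 11 had lower means, with a median log2 fold change of -0.44. Limma called 0 and 10 had an unadjusted p under 0.05, against 14.4% of all probe sets tested at that p. In DEX + TE against DEX 11 of 11 had higher means with a median of 0.18, and 0 had an unadjusted p under 0.05, against 7.76% of all. The part of these muscle genes in the complement signals was not tested.

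The 9 arrays were scaled to the same trimmed mean, 500. Control arrays had medians of 76 to 86.2, DEX arrays of 71.3 to 77.7 and DEX + TE arrays of 84.7 to 95, and 58.5% to 65.2% of probe sets reached a signal of 50. Arrays of 1 group correlated with each other at 0.936 to 0.949 over all log2 signals. In bulk muscle, fewer cells of a type and less RNA per cell cannot be told apart.

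The promoters of C1qb and C1qc are shown because C1qb, C1qc and C1qa are neighbouring genes of chromosome 4, in that order in RefSeq, whose products form 1 protein and whose signals are followed together below. The sequences are those of RefSeq on GRCm38.p6, minus strand, from 250 bases before to 50 bases after the annotated start of the gene. C1qb lies at chr4:136886151-136886450 and C1qc at chr4:136892865-136893164. Capitals mark AGAACA or its reverse complement TGTTCT, a site of 1 monomer of the glucocorticoid receptor, and GAGGAA or its reverse complement TTCCTC, the core read by PU.1 and related ETS factors of myeloid cells.
C1qb: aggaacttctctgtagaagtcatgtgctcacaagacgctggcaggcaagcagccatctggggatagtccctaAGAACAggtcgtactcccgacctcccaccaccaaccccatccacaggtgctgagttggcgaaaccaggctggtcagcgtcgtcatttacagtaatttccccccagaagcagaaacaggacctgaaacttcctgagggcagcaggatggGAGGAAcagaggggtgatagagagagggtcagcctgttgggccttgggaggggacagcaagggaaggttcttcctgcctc
C1qc: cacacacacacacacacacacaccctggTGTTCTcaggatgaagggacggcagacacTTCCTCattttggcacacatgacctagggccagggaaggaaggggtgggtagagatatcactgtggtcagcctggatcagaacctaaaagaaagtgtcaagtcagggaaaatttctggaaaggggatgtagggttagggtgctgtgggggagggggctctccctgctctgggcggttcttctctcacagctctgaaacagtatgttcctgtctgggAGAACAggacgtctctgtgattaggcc
The window of C1qb held 1 match to AGAACA or TGTTCT and 1 to GAGGAA or TTCCTC, and that of C1qc held 2 and 1. No match overlapped another in these sequences. Over 32851 promoter windows of the same length, searched on both strands, 19% held the first motif, 28.3% the second and 5.35% both. Among the other members with a window, that of Cfp held 0 and 2 matches, and those of C3ar1, C3 and C7 held none. These matches describe the letters only.

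The first question was which complement genes differed in DEX mice from control mice. The C1q subunits and properdin had lower mean log2 signals in the DEX group, and C2 had higher ones on its 3 probe sets. Of these 3, 1 turned lower without control replicate 1 and another without control replicate 2. The receptor C3ar1 had no common direction among its probe sets. None of these genes passed the threshold, which was a limma p under 0.05 after Benjamini-Hochberg adjustment over all probe sets together with a log2 fold change of 0.6 or more in size. Thus 0 of 12 complement probe sets were called, against 0.502% of all 29269 tested. At an unadjusted p under 0.05 by limma there were 3 of 12, those of C1qa, C2 and Cfp, against 14.4% of all. DEX and control signals lay apart, with no overlap, in 3 of 12 complement probe sets, C1qc and Cfp lower and C2 higher, against 21.2% of all tested. The median log2 fold change of the 12 was -0.80, with 4 higher and 8 lower means, beside -0.03 over all tested, of which 46.8% had a higher mean. With each array centred on its median these medians were -0.70 and 0.08. The 25% of complement probe sets in both looser counts was not set apart from the share of all probe sets by any test. Of the 12, 8 passed the filter through all 3 groups, C1qa and Cfp through control and DEX + TE only, 1 probe set of C3ar1 through DEX + TE only and another through control only, so a low DEX level of these 4 was favoured by the filter and the counts hold them with that limit.

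The comparison of DEX + TE with DEX mice uses the same DEX arrays as the first. The C1q subunits, properdin and the C1 inhibitor had higher mean signals with TE, and again none passed the threshold. By limma 0 of 12 complement probe sets were called, against 0.0137% of all, which is 4 probe sets. At an unadjusted p under 0.05 there were 3 of 12, those of C1qa, Serping1 and C3ar1, against 7.76% of all. The probe sets of C1qa and C3ar1 did not pass the filter through the DEX group, so a higher level with TE was favoured by the filter. The groups did not overlap in 2 of 12, C1qb and Serping1, both higher with TE, which is 16.7% against 14.8% of all. The median log2 fold change of the 12 was 0.49, with 10 higher and 2 lower means, beside 0.05 over all tested, of which 59.1% had a higher mean. With each array centred on its median, the median was 0.23 over the complement probe sets and -0.21 over all tested.

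Between DEX + TE and control mice the complement probe sets had no common direction. Again 0 of 12 were called, against 0.379% of all, and the only one at an unadjusted p under 0.05 by limma was 1 probe set of C2, against 13.8% of all. Signals did not overlap in 2 of 12, those of C2 and C3ar1, both higher in DEX + TE, against 22.7% of all. That C3ar1 probe set passed the filter only through DEX + TE mice, so a higher level there was favoured by the filter. The median log2 fold change was 0.06, with 7 higher and 5 lower means, beside 0.05 over all. With arrays centred on their medians it was -0.09, with 5 higher and 7 lower, beside -0.11 over all. Each pair of these 3 comparisons shares the arrays of 1 group, so their fold changes are not independent. Rank Product, the test named in the methods, also called 0 of the 12 in each comparison.

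**Figure D1:**
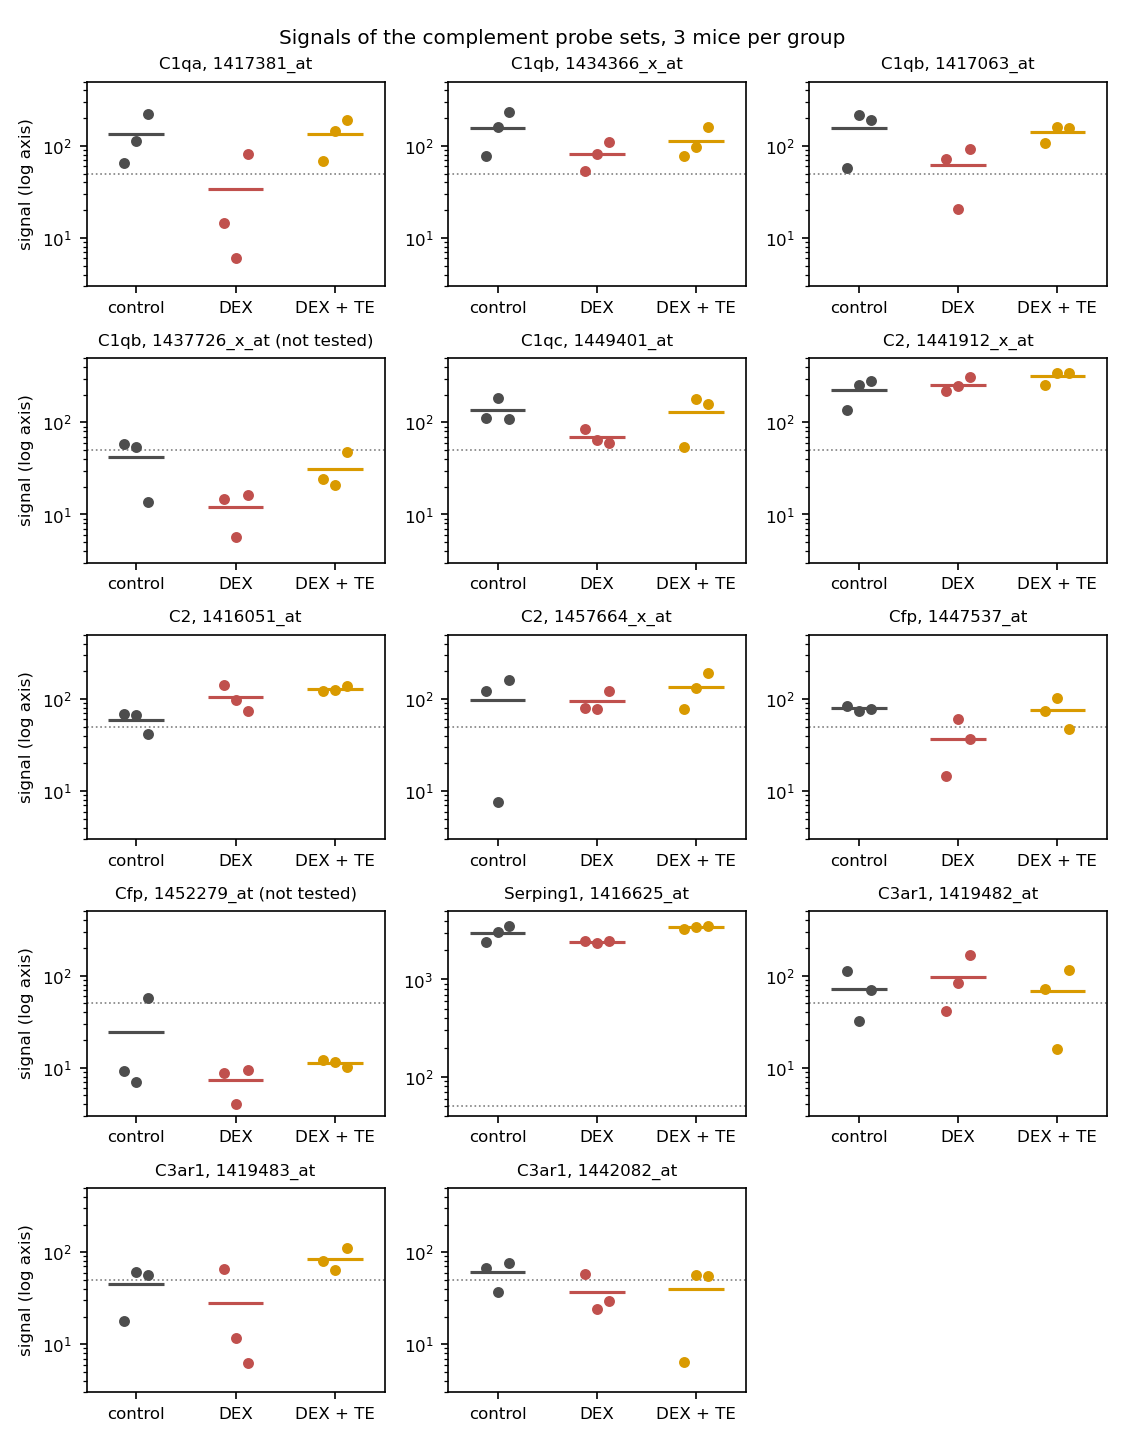
Signal (linear values on a log axis) of each of the 14 complement probe sets on each of the 9 arrays, with the group mean as a bar and a signal of 50 as a dotted line. Each point is 1 mouse, and the axis of Serping1 is placed higher than the others, which share 1 range. C1qa lies at 14.5, 6.08 and 80.6 in the DEX group, and Serping1 lies between 2344 and 2469 there, below all 3 DEX + TE mice.

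**Figure D2:**
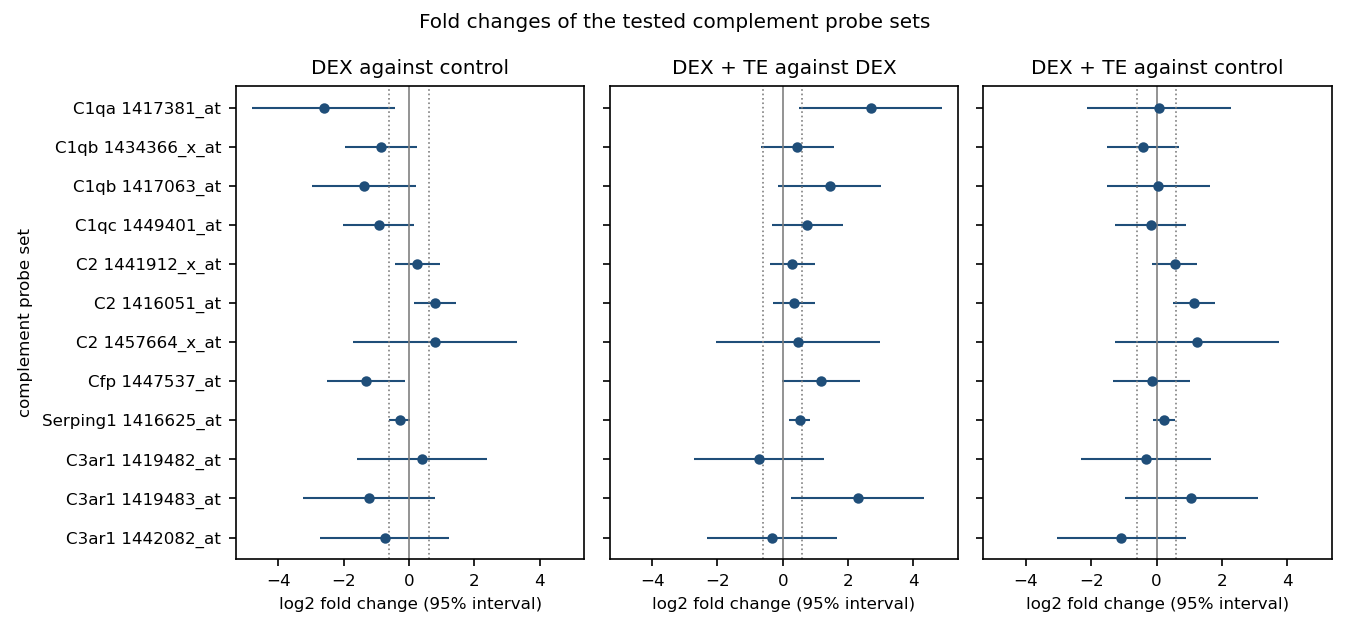
Log2 fold change of the 12 tested complement probe sets in each comparison (points) with the 95% interval of the limma fit (lines). Dotted lines mark an absolute log2 fold change of 0.6. The intervals of C1qa span -4.82 to -0.42 for DEX against control and 0.49 to 4.89 for DEX + TE against DEX, and no point was called after adjustment.

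C1qa encodes the A chain of C1q. Its probe set 1417381_at gave signals of 65.9, 113 and 220.2 in control mice, 14.5, 6.08 and 80.6 in DEX mice, and 68.8, 146 and 189 in DEX + TE mice. The means were 133 ± 79.1, 33.8 ± 40.8 and 134.9 ± 61.1 (SD, n = 3). The DEX mice were low, with only 1 of 3 at or above 50, and this one exceeded the lowest mouse of each other group, so the groups overlapped. The log2 fold change was -2.62 for DEX against control (SE 0.94, 95% interval -4.82 to -0.42, limma adjusted p = 0.271). For DEX + TE against DEX it was 2.69 (SE 0.94, 95% interval 0.49 to 4.89, limma adjusted p = 0.572). Much of the size of both comes from signals under 50, for with these set to 50 the log2 fold changes were -1.01 and 1.08. Leaving out DEX replicate 2, the dimmest array, gave -1.78 and 1.86, and leaving out DEX replicate 3 gave -3.65 and 3.72. The false discovery rates of Rank Product were 0.0662 and 0.0788, the lowest among the complement probe sets. Between DEX + TE and control the difference was 0.07, with a 95% interval of -2.13 to 2.27.

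C1qb, the gene of the B chain, had 3 probe sets. Probe set 1434366_x_at gave 77.1, 159 and 234 in control mice, 53.2, 81.5 and 111 in DEX mice, and 76.8, 98 and 161 in DEX + TE mice. The suffix x marks probes that may also match other transcripts. DEX mice tended to the lower end, but all 3 groups overlapped, and the log2 fold changes were -0.86 for DEX against control (SE 0.48, limma adjusted p = 0.46) and 0.45 for DEX + TE against DEX (SE 0.48, limma adjusted p = 0.852).

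Another C1qb probe set, 1417063_at, gave 57.9, 217 and 190.5 in control mice, 71.2, 20.7 and 92.4 in DEX mice, and 109, 159 and 155.5 in DEX + TE mice. Here all 3 DEX + TE mice lay above all 3 DEX mice, whereas 1 control mouse lay within the DEX range. DEX against control gave a log2 fold change of -1.38 (SE 0.68, 95% interval -2.96 to 0.20, limma adjusted p = 0.405), and -1.98 to -0.72 when 1 array was left out, the last without DEX replicate 2. It was 1.44 for DEX + TE against DEX (SE 0.68, 95% interval -0.14 to 3.01, limma adjusted p = 0.677), and 0.78 without DEX replicate 2. The remaining probe set, 1437726_x_at, stayed under the floor for testing. It gave 57.8, 54 and 13.6 in control mice, 14.8, 5.63 and 16.2 in DEX mice, and 24.5, 20.9 and 47.9 in DEX + TE mice, so no array of either DEX-treated group reached 50.

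C1qc encodes the C chain. Its probe set 1449401_at gave 112, 186 and 108 in control mice, 85, 63.8 and 59.6 in DEX mice, and 53.9, 178 and 160.5 in DEX + TE mice. All 3 DEX mice were below all 3 control mice, and DEX + TE held both the lowest signal and several of the highest of the 9 arrays. DEX against control gave a log2 fold change of -0.93 (SE 0.47, 95% interval -2.02 to 0.16, limma adjusted p = 0.414). It was 0.75 for DEX + TE against DEX (SE 0.47, limma adjusted p = 0.743), and from 0.44 without DEX + TE replicate 2 to 1.30 without DEX + TE replicate 1.

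The 3 chains followed each other only in part. Over the 9 arrays, Pearson's r of the log2 signals was 0.72 between C1qa and C1qb, 0.56 between C1qa and C1qc, and 0.47 between C1qb and C1qc. Taken as deviations from the group means these became 0.66, 0.19 and 0.22. The arrays share their scaling, and low signals add noise to these values. The mean of the standardized log2 signals of the chains was lowest in the 3 DEX arrays and DEX + TE replicate 1, at -1.17 to -0.28, and control replicate 1 stood at -0.16.

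C1q is a macrophage product, and the macrophage markers were counted beside it. Of the 18 macrophage markers tested, limma called 0 in any comparison, and 1, 5 and 1 had an unadjusted p under 0.05 in DEX against control, DEX + TE against DEX and DEX + TE against control. Over all probe sets tested the shares at that p were 14.4%, 7.76% and 13.8%. In DEX against control 6 had higher and 12 lower means with a median log2 fold change of -0.48, and in DEX + TE against DEX 15 were higher and 3 lower with a median of 0.56. The 5 under that p in DEX + TE against DEX included Aif1 and Cx3cr1. These passed the filter only through the DEX + TE mice, so a higher level there was favoured by that choice. The summed signal over 19 macrophage genes was 3549 to 5843 in control, 4253 to 6570 in DEX and 5745 to 6789 in DEX + TE mice, so the sums of DEX and control mice overlapped. A large part of these sums was Lyz1 alone. It gave 1111, 1945 and 1750 in control mice, 1858, 2364 and 3293 in DEX mice, and 2126, 2798 and 2559 in DEX + TE mice. The 6 with higher means in DEX than in control mice were Fcer1g, Lyz1, Folr2, Fcgr1, Lyz2 and Tyrobp. Mrc1 and Csf1r, both among the 12 with lower means, are given in full and were chosen after their values were seen. The mannose receptor Mrc1 gave 171, 285 and 391 in control mice, 188, 143 and 124 in DEX mice, and 313, 279.7 and 220.4 in DEX + TE mice. Its log2 fold changes were -0.84 (SE 0.32, limma adjusted p = 0.291) and 0.84 (SE 0.32, limma adjusted p = 0.596). Csf1r, the receptor for macrophage growth factor, gave 457, 796.5 and 808 in control mice, 434.5, 488 and 587.5 in DEX mice and 787, 857 and 775 in DEX + TE mice, and all DEX + TE mice lay above all DEX mice. Some macrophage markers were far under 50 on single arrays, among them Aif1 at 5.05 on DEX replicate 1 and Fcer1g at 7.81 on control replicate 1. The part of macrophage number in the C1q signals was not tested.

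**Figure D3:**
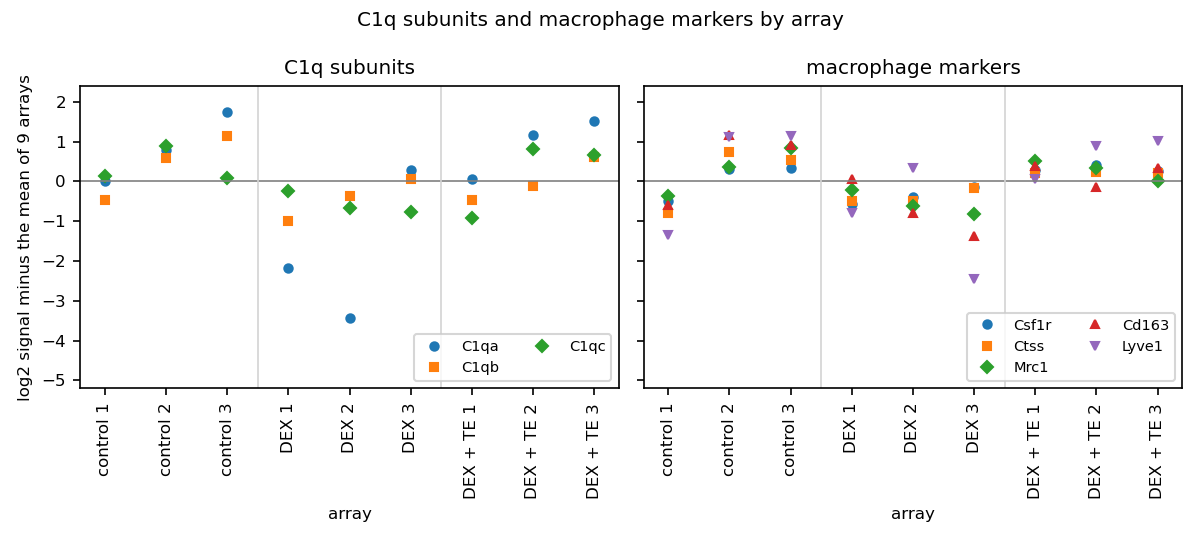
Log2 signal of the C1q chains (left) and of 5 macrophage markers chosen after their values were seen (right) on each array, each minus its own mean over the 9 arrays. All 5 had lower means in DEX than in control mice, and none of the 6 tested macrophage markers with higher means is shown. C1qa falls farthest below its mean on DEX 1 and DEX 2, whereas Mrc1 and Csf1r spread less, and Lyve1 is lowest on DEX 3.

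C2, the protease precursor of the classical and lectin pathways, had higher mean log2 signals in DEX mice on each of its 3 probe sets. Probe set 1416051_at gave 69.4, 66.4 and 41.7 in control mice, 142, 97 and 74.8 in DEX mice, and 123, 125 and 138 in DEX + TE mice. All 6 DEX-treated mice, with or without TE, lay above all 3 control mice, and DEX + TE mice lay within the range of DEX mice. Means were 59.2 ± 15.2, 104.6 ± 34.3 and 128 ± 8.15 (SD, n = 3). The log2 fold change was 0.81 for DEX against control (SE 0.28, 95% interval 0.16 to 1.45, limma adjusted p = 0.247). It was 1.15 for DEX + TE against control (SE 0.28, 95% interval 0.51 to 1.80, limma adjusted p = 0.153). For DEX + TE against DEX it was 0.35 (95% interval -0.30 to 0.99, limma adjusted p = 0.8), and 0.09 with arrays centred on their medians.

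The other probe sets of C2 did not separate the groups. Probe set 1441912_x_at gave 136, 254 and 281 in control mice, 217, 247 and 309 in DEX mice, and 256, 344 and 348 in DEX + TE mice. Its log2 fold change was 0.26 for DEX against control (95% interval -0.43 to 0.94), and -0.07 without control replicate 1. It was 0.55 for DEX + TE against control (95% interval -0.13 to 1.24, limma adjusted p = 0.446). On 1457664_x_at control replicate 2 stood apart at 7.7, beside 123 and 161 in the other control mice. DEX mice gave 80.8, 78.2 and 123 there, and DEX + TE mice 78.2, 133 and 193. The log2 fold change of 0.79 for DEX against control rested on that array and was -0.61 without it.

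C2 is among the plasma proteins that the liver secretes, and liver markers were measured beside it. Of 4 tested liver markers, 4 had higher means in DEX than in control mice, against 46.8% of all probe sets tested, and 1 was called, against 0.502% of all. The 1 called was Apoh, the gene of the plasma protein apolipoprotein H. Apoh gave 44.7, 36.9 and 53.9 in control mice, 330, 239 and 295 in DEX mice, and 271, 170 and 358 in DEX + TE mice, a log2 rise of 2.68 in DEX mice (SE 0.29, limma adjusted p = 0.0157). Its control mean was 45.2, under the floor of 50, so it passed the filter only through the DEX-treated groups. Apoa2, with a control mean of 36.6, also passed only through these groups. A higher level of both there was favoured by that choice. The summed signal of 9 liver markers was 304 to 545 in control, 734.5 to 1400 in DEX and 1010 to 1320 in DEX + TE mice. Only 4 of these 9 were tested, and Cyp2e1 alone gave 815 on DEX replicate 1. Albumin itself, as Alb, gave 52.5, 83.2 and 55 in control mice, 72.3, 42.2 and 116 in DEX mice, and 43.4, 62 and 110.4 in DEX + TE mice, with overlap of all groups. The part of these genes in the C2 signal was not tested.

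Cfp encodes properdin, which myeloid cells release. The tested probe set 1447537_at gave 85, 74.8 and 78.9 in control mice, 14.5, 60.2 and 36.9 in DEX mice, and 74.4, 104 and 47.6 in DEX + TE mice. All 3 DEX mice lay below all 3 control mice, and DEX + TE mice overlapped both other groups. Means were 79.6 ± 5.13, 37.2 ± 22.8 and 75.2 ± 28.1 (SD, n = 3). Comparing DEX with control gave a log2 fold change of -1.32 (SE 0.51, 95% interval -2.50 to -0.13, limma adjusted p = 0.3), and -0.58 with signals under 50 set to 50. For DEX + TE against DEX it was 1.17 (SE 0.51, 95% interval -0.02 to 2.35, limma adjusted p = 0.647), and 0.45 with that floor. Without DEX replicate 1 these were -0.75 and 0.60.

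The other Cfp probe set, 1452279_at, had 1 signal of 56.8 in control replicate 3. Its other 8 signals ran from 3.99 to 12, so it was dim in all groups and was not tested.

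Serping1, the gene of the C1 inhibitor, was bright on every array. Its probe set 1416625_at gave 2408, 3077 and 3496 in control mice, 2469, 2344 and 2454 in DEX mice, and 3325, 3486 and 3574 in DEX + TE mice. The DEX mice were close together, all below all DEX + TE mice, and control mice spanned nearly the whole range of both. Means were 2994 ± 548, 2422 ± 68 and 3462 ± 126 (SD, n = 3). TE on top of DEX gave a log2 fold change of 0.52 against DEX alone (SE 0.14, 95% interval 0.18 to 0.85, limma adjusted p = 0.489), and 0.26 with arrays centred on their medians. For DEX against control it was -0.29 (SE 0.14, 95% interval -0.62 to 0.04, limma adjusted p = 0.408). Against control, DEX + TE mice differed by 0.23 (95% interval -0.11 to 0.56).

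Connective tissue cells also express Serping1, and 13 fibroblast markers were measured. In DEX against control 3 of the 13 were called, all lower, against 0.502% of all probe sets tested. The 3 were the collagen genes Col1a1 and Col1a2 and the collagen-processing factor Pcolce. Lower means were seen in 12 of 13, with a median log2 fold change of -0.62. Col1a1 fell by 1.84 on the log2 scale (SE 0.25, limma adjusted p = 0.036), from 993.5, 1629 and 1195 in control mice to 248, 376 and 447 in DEX mice. With TE on top of DEX limma called 0, and 8 had an unadjusted p under 0.05, against 7.76% of all probe sets tested. Of these markers 13 of 13 had higher means, with a median of 0.58. Their summed signal was 49280 to 71420 in control, 34300 to 45420 in DEX and 57530 to 63980 in DEX + TE mice, a range that did not overlap between DEX and either other group. Their part in the Serping1 signal was not tested.

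C3ar1, the receptor for C3a on myeloid cells, had 3 probe sets, all near the floor, which did not move alike. Probe set 1419483_at gave 17.9, 61 and 55.9 in control mice, 65.4, 11.8 and 6.24 in DEX mice, and 79.98, 63.8 and 111 in DEX + TE mice. All DEX + TE mice lay above all control mice, and 1 DEX mouse lay within the DEX + TE range. TE on top of DEX gave a log2 fold change of 2.29 against DEX alone (SE 0.87, 95% interval 0.26 to 4.32, limma adjusted p = 0.601), but 0.60 with signals under 50 set to 50. This probe set passed the filter only through the DEX + TE mice, so a higher level there was favoured by that choice. On 1419482_at control mice gave 113, 32.5 and 70.2, DEX mice 41.4, 84.1 and 166, and DEX + TE mice 71.6, 15.8 and 115. There the log2 fold change was -0.72 for DEX + TE against DEX (95% interval -2.71 to 1.28), the opposite sign. On 1442082_at the signals were 67.7, 36.9 and 77.1, then 57.3, 23.9 and 29.7, then 6.48, 57.1 and 55.8 in the same order of groups, with overlap throughout.

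The exact two-sided permutation test of 3 against 3 arrays cannot give a p below 0.1. That smallest exact p was reached by every complement probe set whose groups did not overlap, which were C1qc, Cfp and C2 1416051_at for DEX against control, C1qb 1417063_at and Serping1 for DEX + TE against DEX, and C2 1416051_at and C3ar1 1419483_at for DEX + TE against control.

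The other complement genes, from lists by role, had 37 genes with a probe set, of which 24 were tested on the one with the highest mean signal. In DEX against control 1 of 24 was called, lower, and 0 higher, against 0.502% of all probe sets tested. There were 6 higher and 18 lower means, with a median log2 fold change of -0.21. Between DEX + TE and DEX 0 were called, with 16 higher and 8 lower means and a median of 0.09. Between DEX + TE and control 0 were called, with 10 higher and 14 lower means and a median of -0.15. At an unadjusted p under 0.05 by limma there were 3, 2 and 5 of 24 in these comparisons, against 14.4%, 7.76% and 13.8% of all.

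The gene called was Colec11, a collectin that recognizes sugars and starts the lectin pathway. Its probe set 1458345_s_at, whose suffix marks probes shared by several transcripts, gave 169, 138 and 206 in control mice, 42.1, 40.1 and 73.3 in DEX mice, and 74.6, 83.7 and 83.4 in DEX + TE mice. The 3 groups did not overlap, with DEX lowest and DEX + TE between. Against control, DEX gave a log2 fold change of -1.76 (SE 0.25, limma adjusted p = 0.0409). It was 0.69 for DEX + TE against DEX (SE 0.25, limma adjusted p = 0.592) and -1.07 for DEX + TE against control (SE 0.25, limma adjusted p = 0.153). Colec11 passed the filter through control and DEX + TE mice only, so a low DEX level was favoured by that choice. The call was made under 6 of 17 alternatives, and with the highest adjusted p, 0.162, it was lost when only the 6 arrays compared were fitted. It was also lost without the filter on low signal (limma adjusted p = 0.0958) and with the replicate number as a block (0.0716). It was lost without any 1 control mouse (limma adjusted p = 0.0954 to 0.115), without DEX replicate 1 (0.0976) or 2 (0.12) and without any 1 DEX + TE mouse (0.0843 to 0.0933), and it held without DEX replicate 3 (0.0205). The log2 fold change stayed between -2.04 and -1.60 when a control or DEX mouse was left out. Rank Product gave it a false discovery rate of 0.207, which is no call.

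By role, the other C1 and lectin genes were lower in mean in 6 of 8 with DEX and higher in 6 of 8 with TE added to DEX. C1ra, the gene of a C1 protease, gave 114, 243.5 and 273 in control mice, 74.5, 113 and 200 in DEX mice, and 314, 208 and 216 in DEX + TE mice, the last all above the DEX mice. Its log2 fold change was 1.02 for DEX + TE against DEX (SE 0.45, limma adjusted p = 0.649). Mbl1, a mannose-binding lectin, gave 62.6, 68.8 and 57.9 in control mice against 47.1, 38.3 and 16.5 in DEX + TE mice, all under 50 and thus at least 1.26-fold lower (limma adjusted p = 0.321). Mbl1 passed the filter through control and DEX mice only, so a low DEX + TE level was favoured by that choice.

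Cfb, factor B of the alternative pathway, was the only other gene of that pathway tested. It gave 55.3, 40.4 and 24.4 in control mice, 27.4, 36.1 and 10.5 in DEX mice, and 87.95, 50.8 and 88.3 in DEX + TE mice. All DEX + TE mice lay above all DEX mice, which were under 50 throughout. Cfb passed the filter only through the DEX + TE mice, so a higher level there was favoured by that choice and no fold is given. Of the 6 terminal genes with a probe set, only C8g reached the floor, and it had lower means in DEX and in DEX + TE than in control mice.

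Of 7 regulators tested, among them the membrane guards Cd55 and Cd59a and the soluble clusterin (Clu) and vitronectin (Vtn), limma called 0 and 0 had an unadjusted p under 0.05 on the probe set used for the list, with median log2 fold changes of -0.15, 0.04 and -0.18 in the 3 comparisons. The other complement genes had 17 further tested probe sets, of which limma called 0 in any comparison and 3, 1 and 4 had an unadjusted p under 0.05. Among these were 2 of Cd55 whose DEX mice lay below all control mice. Their log2 fold changes for DEX against control were -0.63 (SE 0.18, limma adjusted p = 0.184) and -0.44 (SE 0.17, limma adjusted p = 0.315). The DEX + TE mice also lay below all control mice on both, with log2 fold changes of -0.50 and -0.37 against control. On the Cd55 probe set used for the list, DEX and control mice overlapped, with a log2 fold change of -0.51. Of 7 receptors tested 0 were called as well, and 1, 0 and 2 had an unadjusted p under 0.05. Over all probe sets tested the shares at that p were 14.4%, 7.76% and 13.8%. C5ar1, the receptor for C5a, gave 36.4, 30.4 and 42.8 in control mice, 4.87, 52.1 and 27.9 in DEX mice, and 49.2, 90.8 and 67.2 in DEX + TE mice on 1439902_at, which passed the filter only through the DEX + TE mice. With signals under 50 set to 50 its log2 fold change for DEX + TE against DEX was 0.41, and its other tested probe set gave -0.32 without that floor. Itgb2, the shared chain of complement receptors 3 and 4, gave 108, 97.8 and 108 in control mice, 74.5, 34.5 and 111 in DEX mice, and 10.4, 80.8 and 12 in DEX + TE mice. DEX + TE mice lay below all control mice, with a log2 fold change of -2.27 (SE 0.79, limma adjusted p = 0.282), and -0.84 with signals under 50 set to 50. Itgb2 passed the filter through control and DEX mice only, so a low DEX + TE level was favoured by that choice.

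**Figure D4:**
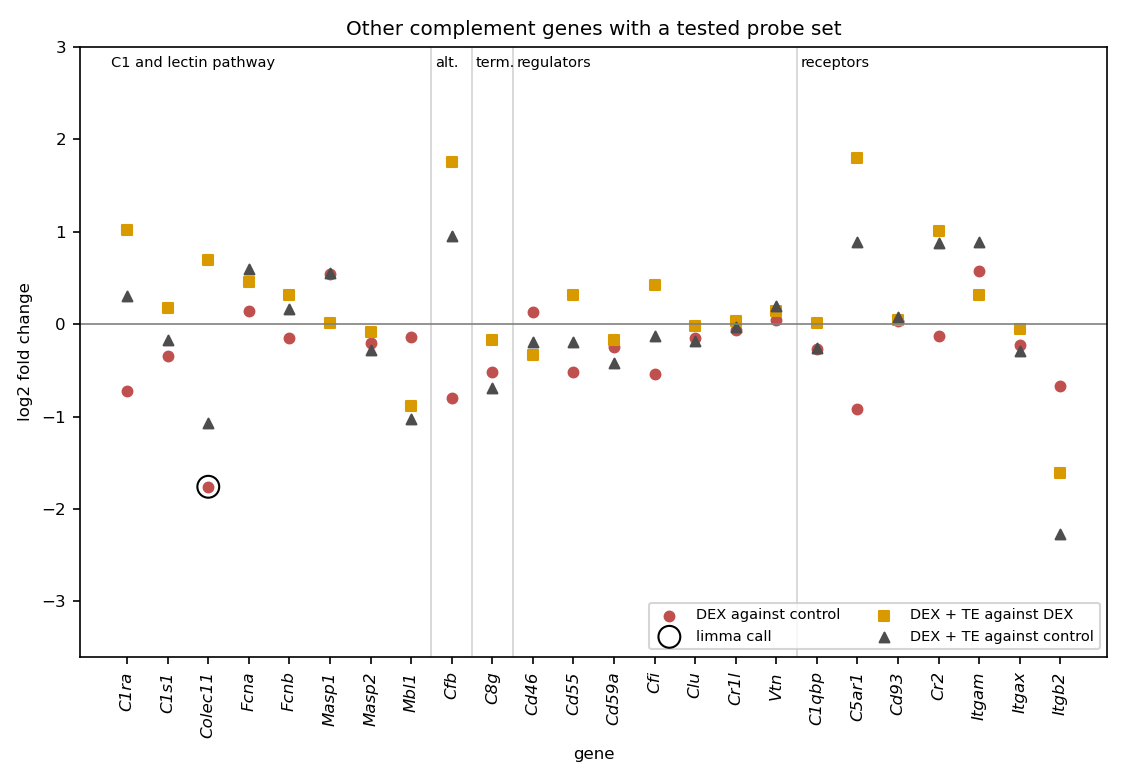
Log2 fold change of the 24 other complement genes tested, by role (alt., alternative pathway; term., terminal components) and comparison, with the limma call circled. Colec11 at -1.76 in DEX against control is the only call. Points of dim genes, Cfb, C5ar1 and Itgb2 among them, rest in part on signals under 50.

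The genes whose log2 signal was most like the mean of the C1q chains over the 9 arrays were Niban1, a stress-response gene (Pearson's r 0.98), the solute carrier Slc7a4 (0.948), the zinc finger gene Zfp592 (0.932), the peroxisomal protease Lonp2 (0.931) and the small GTPase Rit1 (0.93). Niban1 gave 226, 328 and 374.5 in control mice, 192, 182 and 222 in DEX mice, and 223, 311.5 and 359 in DEX + TE mice. All DEX mice were below all others, the nearest pair being 222 and 223. These 5 were picked as the highest among all tested probe sets with 1 symbol, members left out, so their r describes the choice. Over the same 9 arrays r was 0.743 for Serping1. For the 18 macrophage markers it ran from -0.16 for Fcer1g to 0.75 for Csf1r with a median of 0.36, and was above 0 in 16 and below in 2.

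Markers of other blood and tissue cells were counted once. Of 4 neutrophil markers tested limma called 0. In DEX against control 2, S100a8 and S100a9, had an unadjusted p under 0.05, against 14.4% of all probe sets tested. The median log2 fold change was 0.93, with Ngp at 0.11 and Mpo at -0.49. S100a9 passed the filter only through the DEX-treated groups and Mpo only through DEX + TE mice, so a higher level there was favoured by that choice. The summed signal over 9 neutrophil genes was 366 to 554 in control, 625 to 964.5 in DEX and 554 to 1238 in DEX + TE mice. Of 3 lymphocyte markers limma called 0, and 0 had an unadjusted p under 0.05. Of 10 endothelial markers 1 was called, Cldn5, higher in DEX than in control mice by 1.56 on the log2 scale (SE 0.21, limma adjusted p = 0.0341) and in DEX + TE than in control mice by 2.12 (SE 0.21, limma adjusted p = 0.0132). Over all probe sets tested 0.502% and 0.379% were called in these comparisons. In DEX against control 6 of the 10 had higher and 4 lower means, with a median log2 fold change of 0.09. Among the 4 were Vwf (-0.97, limma adjusted p = 0.0776) and Flt1 (-0.81, limma adjusted p = 0.176), with all DEX mice below all control mice. Of 7 adipocyte markers 2 were called, Adipoq and Retn, both higher in DEX + TE than in control mice, against 0.379% of all probe sets tested. In that comparison 5 of the 7 had higher and 2 lower means, with a median log2 fold change of 1.31. The 2 lower were Car3 (-0.32) and Fabp4 (-0.21). The part of all these markers in the complement signals was not tested.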

How the data were processed

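The deposited values are linear intensities, 1 for each probe set of an array. The 2% trimmed mean of each array is 500, whereas the methods describe Robust Multi-array Average, so the deposited values are another summary, made by a program not given in the sources used here. RNA (250 ng per mouse) had been labelled with a 3′ IVT kit and read on Affymetrix arrays of 45101 probe sets. The 64 control probe sets were left out. Symbols came from the annotation of the array (34945 probe sets with 1 symbol, 932 with several, 9160 with none), and all 14 complement probe sets matched RefSeq by Entrez number.

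After log2 transformation without an offset, the filter kept the 29269 probe sets in which some group had a mean log2 no lower than that of a signal of 50. The model in limma 3.58.1 (R 4.3.3; lmFit, eBayes) had 3 group means and used all 9 arrays. Rank Product (100 permutations, Python 3.11.15) was an alternative. A call needed an adjusted p or false discovery rate under 0.05 with a log2 fold change of 0.6 or more in size, as in the methods of the study. Other alternatives concerned scaling, filter, variance model, arrays fitted, the replicate number as a block and each array left out, and a floor at 50 added after seeing the data. The limma code was tested on simulated data. Intensities carry no read depth, and 3 arrays per group limit the precision of every level. The p-values measure the spread between mice of 1 experiment.

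The complement members and all gene lists were chosen with earlier results of these data known. The text names every member, the other complement genes called or with the 3 largest changes of a comparison, the 5 genes most like C1q, and called markers. C1ra, Alb, Apoa2, Cyp2e1, Cd55, Vwf, Flt1, Car3, Fabp4, the neutrophil genes, Mrc1, Csf1r and the other macrophage genes were named after their values were seen. One probe set per gene, that with the highest mean, was used for lists.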

Additional observations from a re-analysis of the deposited data

How the results depend on the processing

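The count of complement probe sets called was 0 in each comparison under all 17 limma alternatives and under Rank Product. Of 600 values of the 36 single results under alternatives, 574 had the same sign and side of the threshold, 0 passed it and 26 had another sign, in 11 results. The lowest adjusted p of any was 0.0884, for C2 1416051_at in DEX + TE against control among probe sets with a group mean of at least 100. Deviations of same-numbered arrays correlated at -0.02 to 0.05. Arrays of different numbers were not compared in this way, so these values cannot decide whether the numbers of the labels pair the mice. With the replicate number as a block the lowest adjusted p of a complement probe set was 0.183, 0.452 and 0.214 in the 3 comparisons, and the block changed no call among them. The first was that of C1qb 1434366_x_at, at 0.46 without the block by limma.

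With signals under 50 set to 50, an alternative chosen after seeing the data, C2 1457664_x_at gave -0.115 for DEX against control, C3ar1 1442082_at 0.051 for DEX + TE against DEX and C3ar1 1419482_at 0.018 for DEX + TE against control. In DEX + TE against control, centring arrays on their medians gave -0.078 for C1qa and -0.095 for C1qb 1417063_at, while quantile normalization gave -0.041 and -0.056. Leaving out 1 array, in DEX + TE against control, gave -0.35 to 0.52 for C1qa, -0.55 to 0.41 for C1qb 1417063_at, -0.49 to 0.37 for C1qc, -0.16 to 2.04 for C2 1457664_x_at, -0.92 to 0.51 for C3ar1 1419482_at and -0.42 to 0.15 for Cfp. In DEX against control it gave -0.068 to 0.46 for C2 1441912_x_at, -0.61 to 1.58 for C2 1457664_x_at and -0.11 to 0.89 for C3ar1 1419482_at. For DEX + TE against DEX it gave -1.31 to 0.12 for C3ar1 1419482_at and -0.86 to 0.71 for C3ar1 1442082_at. The cause was not tested.

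Calls over all probe sets depended on the setting. In DEX against control there were 147, with 53 without the filter, 341 at a group mean of at least 100, 563 with a mean-variance trend, 41 with the block, 18 on the 6 arrays compared, 270 with the floor at 50, 87 by Rank Product and 51 to 101 with 1 array left out. In DEX + TE against control 111 became 44, 222, 409, 30, 55 and 213 in the same order up to the floor, 129 by Rank Product and 31 to 87 with 1 array left out. Between DEX + TE and DEX 4 became 0 under these except 3 with the trend, 34 by Rank Product and 0 to 3 with 1 array left out.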
